A study of Saccharomyces cerevisiae with 11 samples.

Results

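The 40 genes described here encode proteins of the large subunit of the yeast mitochondrial ribosome. They comprise 34 genes named MRPL together with IMG1, IMG2, MRP7, MRP20, YML6 and RML2, were chosen by systematic name, and make up 40 of the 6834 features in the deposited tables. All 40 are listed in the table of every library (IMG2 and MRPL32 at 0 counts in some), and all 40 passed the expression filter, which kept 5456 features for testing. The libraries are total RNA from budding yeast of the BY4741 background in which chromosomal Abf1 can be pulled out of the nucleus (anchor-away strain ABF1-aa-V5, a single clone, A9). Rapamycin tethers the tagged Abf1 to a ribosomal protein that leaves the nucleus, and every group, controls included, received 8 µg per ml of it. Each strain also carried a pRS315 plasmid. The plasmid encoded full-length Abf1 (WT Abf1, 2 libraries) or was empty (no Abf1, 3 libraries). Otherwise it encoded a variant with an altered disordered region called IDR2: EM shuffle, in which the essential motif is scrambled, LS15, in which other windows are scrambled, and NCS506, which comes from random mutagenesis (2 libraries each). In the study's methods the variants lack IDR1, which WT Abf1 keeps, so construct and IDR1 cannot be told apart in any comparison of a variant with WT Abf1. As the sole source of Abf1, EM shuffle is listed there as inviable and LS15 and NCS506 as viable with slow growth. Replicates are described as independent clones. All libraries were collected after 1.25 h of rapamycin except WT Abf1 replicate 1, which was collected after 1 h and has another batch label. Batch, time and replicate therefore cannot be told apart within WT Abf1, and every result was refitted without that library.

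Mitochondrial ribosomes translate the few mRNAs of the mitochondrial genome, mostly for membrane subunits of the respiratory chain and the ATP synthase. Apart from one small-subunit protein, their proteins are encoded in the nucleus, made in the cytosol and imported. Part of the large subunit descends from the bacterial ribosome, and 26 of the 40 genes encode such proteins; the other 14 encode proteins found only in mitochondrial ribosomes. Abf1 is an essential general regulatory factor that binds a split consensus with a spacer of any sequence, positions nucleosomes and sits in many promoters. Puf3, an RNA-binding protein of the Pumilio family, binds an element in the 3′ UTR of many mRNAs for mitochondrial proteins and acts on their localization, translation and decay.

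The sequences on which the promoter comparison rests come first. A match to the Abf1 consensus lay within 400 bp upstream of the start codon in 13 of the 40 genes (32.5%), in 9 of 31 small-subunit genes (29.0%) and in 942 of 5866 nuclear protein-coding genes (16.1%). The matches of the 5 genes that carried one and fell without Abf1 are shown, followed by 3 that carried one and did not pass the test. Each is read from the RefSeq copy of the R64 genome on the strand of the match, and capitals mark the fixed outer blocks of the consensus around the spacer.
IMG2: ctataatgGTCATcgcgtACGaatggctt
MRPL32: gaaatctcATCGTatcatACGattatttc
MRPL36: acgagataATCGCtctttACGgtttgggg
MRPL51: gtaagtttATCGCactatACGttacggtg
MRP20: cacagaagATCACttaatACGtaatcgcg
MRPL8: ctttgtctGTCACcgcgtACGaggcggga
MRPL16: ccagttgaATCACtaattACGaaagaatg
MRP7: caaagagaGTCATttgaaACGacccaagg
The IMG2 match lies at chrIII:240671-240683 on the minus strand, 128 bp from the start codon, and that of MRPL32 at chrIII:118499-118511 on the plus strand, 109 bp away. Those of MRPL36 and MRPL51 lie at chrII:484634-484646 and chrXVI:729636-729648, both on the plus strand, 131 bp and 143 bp away. MRP20 has matches on the plus strand at 182 bp (chrIV:1277452-1277464, shown) and 167 bp. The nearest match of 12 genes lay 102 bp (MRPL44) to 167 bp (MRP20) upstream, and that of MRP7 stood apart at 346 bp (chrXIV:622774-622786, minus strand). The shown matches of MRPL8 and MRPL16 lie 123 bp upstream at chrX:316598-316610 (minus strand) and 164 bp upstream at chrII:146011-146023 (plus strand). A match says only that these letters are present. Occupancy by Abf1 was not measured in these files.

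A sequence shared by the whole set lay at the other end of the genes. The Puf3 element, TGTANATA, was found within 300 bp downstream of the stop codon, on the coding strand, in 40 of 40 large-subunit genes and in 30 of 31 small-subunit genes (96.8%), against 965 of 5866 protein-coding genes (16.5%). The window was not limited to annotated 3′ UTRs. The elements of the gene that fell most, of the gene that rose, and the first of the gene with the highest level per length are shown as RNA, with the element in capitals.
IMG2: uugucaUGUAUAUAuauuaa
MRPL17: aucacaUGUAAAUAucauua
MRPL49: gggauaUGUACAUAuacgca
They lie at chrIII:240064-240071 (minus strand), chrXIV:171345-171352 (minus strand) and chrX:246988-246995 (plus strand), 32 bp, 89 bp and 13 bp after the stop codon. Other promoter words, searched on both strands of the 400 bp, had shares nearer to those of all promoters. TTACCCG, the Reb1 site, occurred in 5 members (12.5%, against 9.36% of all promoters), CCAAT, the word bound by the Hap complex, in 19 (47.5% against 53.1%), and AATTTT, part of an element of ribosome biogenesis genes, in 22 (55.0% against 63.0%).

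Depth set how firmly each gene could be read. The libraries held 920044 to 2195476 counts (median 1422833), and the 40 members together took 1159 to 3442 of them, 0.110% to 0.157% of a library. Levels are given as CPM, the count per 1000000 of the TMM-scaled library size. Features for non-coding RNA took from 11.8% (WT Abf1 replicate 2) to 23.5% (WT Abf1 replicate 1) of the counts. ABF1 itself, counted from chromosome and plasmid together, lay between 188 and 405 CPM in all libraries. WT Abf1 (315 and 365 CPM) and no Abf1 (344, 405 and 379) overlapped, so its RNA level could not check these labels. LS15 and EM shuffle overlapped with both, and the NCS506 libraries (248 and 219) lay below both. Each replicate pair differed by more than counting noise (chi-square per degree of freedom 1.25 to 2.09 in no Abf1 and 6.28 to 26.7 in the other groups, over 4800 features). The pair furthest apart was EM shuffle (26.7), followed by WT Abf1 (23.5), whose libraries differ in time and batch label. LS15 (6.28) and NCS506 (6.97) lay well below these.

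In both EM shuffle libraries a whole chromosome stood apart. In replicate 2 the median gene of chromosome XI was 0.86 higher on the log2 scale than its median over all libraries, and 91.8% of 267 genes were above it. In replicate 1 the same held for chromosome VIII, at 0.48, with 92.9% of 211 genes above. The other 174 pairs of library and chromosome lay between −0.07 and 0.06. Of the 40 members, 4 are on chromosome XI (MRPL13, MRPL20, MRPL31 and MRPL38) and MRPL6 is on VIII. MRPL31 stood at 62.0 CPM in EM shuffle replicate 2 and between 21.0 and 32.1 in the other 10 libraries. MRPL13 stood at 92.5 there, against 35.2 to 56.5, and MRPL20 at 74.6, against 23.7 to 41.7. DNA copy number was not measured, and what raised these chromosomes was not tested. EM shuffle values are therefore given with and without each replicate, and with both chromosomes left out.

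**Figure D1:**
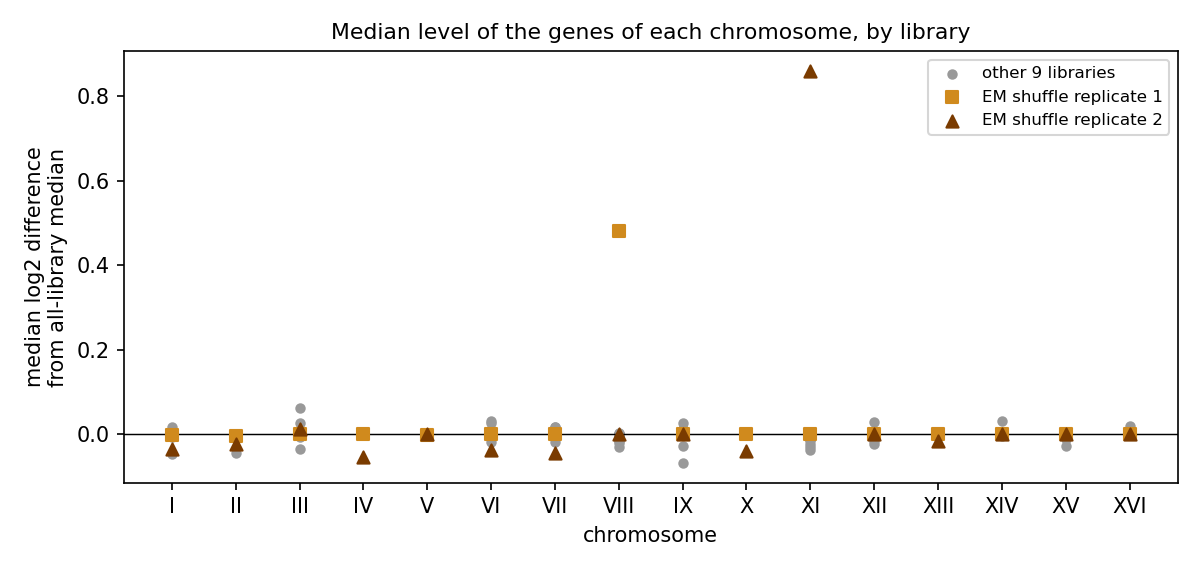
Each point is the median, over the genes of a chromosome with a mean of at least 20 CPM, of the log2 difference between a library and the gene's median over all 11 libraries. Chromosome XI in EM shuffle replicate 2 (0.86) and chromosome VIII in replicate 1 (0.48) stand above all other points, which lie between −0.07 and 0.06.

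Levels per length were compared across the members, first with WT Abf1. Group means per kilobase of coding sequence ran from 28.5 CPM per kb for IMG2 to 89.4 for MRPL33, a 3.14-fold range, with a median of 49.1 and an SD of 0.38 across genes on the log2 scale. Each of these proteins is present once per ribosome. Without Abf1 the median level was 53.0 CPM per kb, but the range widened to 43.9-fold, from 2.26 for IMG2 to 99.3 for MRPL49, and the SD across genes to 1.04. In LS15 the SD was 0.85, in EM shuffle 0.55 and in NCS506 0.48. No spread across other genes stands beside these values, so the widening is not read as particular to the members. The lowest level in no Abf1 and in LS15 was that of IMG2, from 3 counts in each group. Next above it was MRPL32, at 6.39 CPM per kb in no Abf1 and 20.2 in LS15. The highest LS15 level was 74.4 (MRPL4), against 2.07 for IMG2, so the wide LS15 range rested on IMG2. The full 43.9-fold range in no Abf1 rested on the few counts of IMG2 too. Over all libraries IMG2 and MRPL32 had the lowest mean levels per length (12.3 and 20.5 CPM per kb), and MRPL49 and MRPL37 the highest (77.2 and 73.0). MRPL37 encodes mL54, a mitochondria-specific protein. Its level was 25.6 ± 0.624 CPM with WT Abf1 (SD, n = 2) and 26.4 ± 7.16 without Abf1 (SD, n = 3), a difference within the spread of the libraries. MRPL49 encodes bL21, and stood at 31.9 and 37.0 CPM with WT Abf1 and at 57.2, 40.3 and 47.3 without. The groups did not overlap, but the difference did not pass the test (log2 fold change 0.48 ± 0.22 SE, adjusted p = 0.136, edgeR with Benjamini-Hochberg adjustment).

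**Figure D2:**
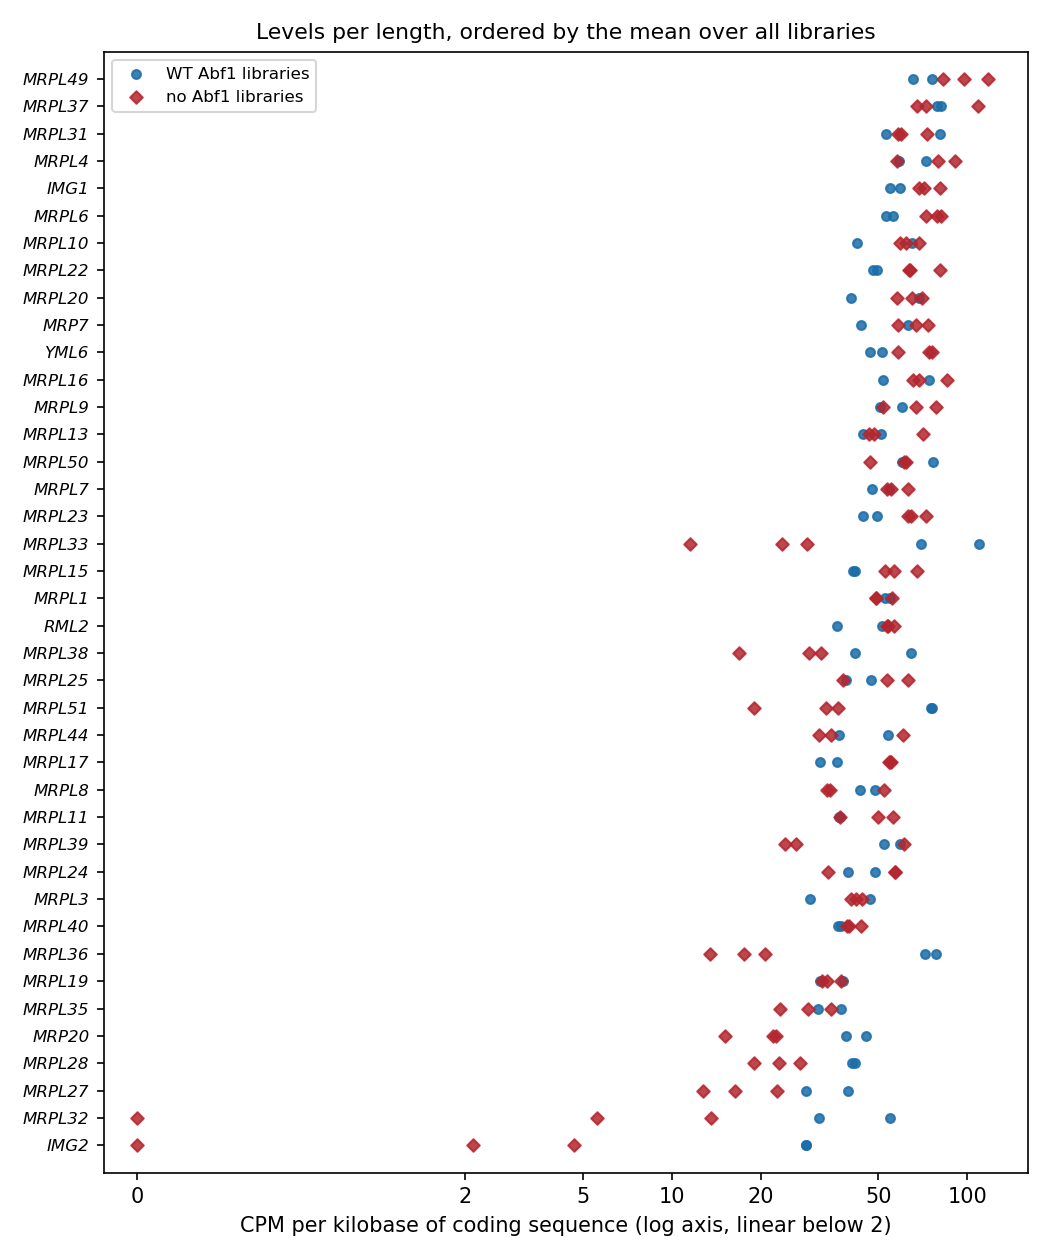
Points are single WT Abf1 (circles) and no Abf1 (diamonds) libraries, on an axis of CPM per kilobase of coding sequence that is logarithmic above 2 and linear below, and genes are ordered by their mean over all 11 libraries. Most genes lie in a common band. In IMG2, MRPL32, MRPL33, MRPL36, MRPL51 and MRP20, which were called lower, the no Abf1 libraries lie toward its left edge or beyond it. Those of MRPL27, MRPL28 and MRPL38, which were not called, lie there too.

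The first comparison asks which of these genes differed in RNA level between no Abf1 and WT Abf1. In no Abf1 against WT Abf1, 6 of the 40 genes fell and 1 rose, all at an adjusted p under 0.05 in edgeR's quasi-likelihood test over all features. IMG2, MRPL32, MRPL36, MRPL33, MRPL51 and MRP20 fell, by 1.07 to 3.56 on the log2 scale, and MRPL17 rose by 0.68. The share of members that fell (15.0%) was close to that of all features tested (13.7%), and the share that rose (2.5%) was below that of all features (9.73%); 23.4% of all features were called in either direction. The median log2 fold change of the members was 0.15, against 0.02 for all features. The other 33 of the 40 were not called, with values from −1.01 to 0.51. Since the RNA came from whole cultures, less RNA in every cell and no RNA in some cells cannot be told apart, and levels are relative to the other genes of a library.

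**Figure D3:**
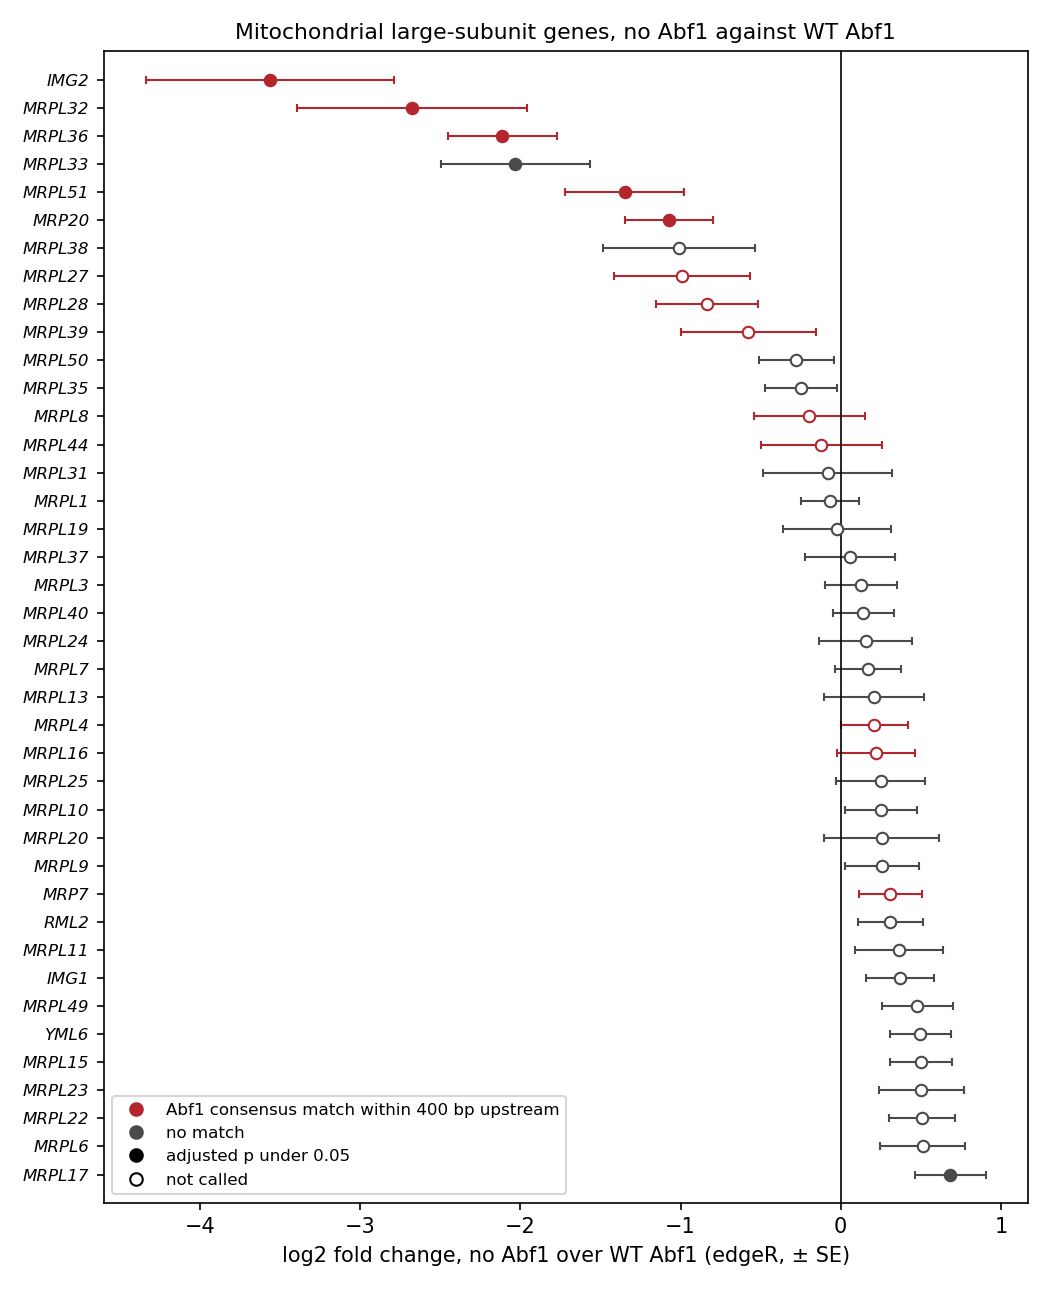
Points are edgeR log2 fold changes of no Abf1 over WT Abf1 for the 40 genes, with bars of 1 SE; filled points passed an adjusted p under 0.05, and red marks an Abf1 consensus match within 400 bp upstream. The 6 genes that fell stand at the top, 5 of them red, and MRPL17, which rose, stands at the bottom.

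IMG2 (YCR071C, chrIII:240103-240543, minus strand, 1 exon) encodes mL49, a mitochondria-specific subunit named for the loss of the mitochondrial genome in its mutants. It gave 15 and 18 counts in the WT Abf1 libraries and 0, 1 and 2 in the no Abf1 libraries. These low counts did not overlap, and after scaling for depth the no Abf1 libraries held 7.85% of the WT Abf1 level (exact 95% interval 1.54% to 25.04%, counting error only). The fitted log2 fold change was −3.56 ± 0.78 (SE, adjusted p = 0.00770, edgeR with Benjamini-Hochberg adjustment), a size that depends on the prior count at so few counts. MRPL36 (YBR122C, chrII:483970-484503, minus strand, 1 exon), bL31, has been linked to translation of the mitochondrial COX2 mRNA. Its level was 42.0 and 38.4 CPM with WT Abf1 and 11.03, 9.37 and 7.20 without. All no Abf1 values were below all WT Abf1 values, at 22.9% of the WT Abf1 mean (log2 fold change −2.11 ± 0.34 SE, edgeR adjusted p = 0.00180). These 2 calls held under each library left out in turn and under every other setting in which the gene was tested.

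The other 4 falls rested on fewer libraries. MRPL32 (YCR003W, chrIII:118620-119171, plus strand, 1 exon) encodes bL32, whose maturation by the m-AAA protease controls assembly of the mitochondrial ribosome. It stood at 30.2 and 17.5 CPM with WT Abf1 and at 0, 7.49 and 3.08 without (log2 fold change −2.68 ± 0.72 SE, edgeR adjusted p = 0.0194). The groups did not overlap, but the call was lost without WT Abf1 replicate 1 (adjusted p = 0.0913 in edgeR), without no Abf1 replicate 1 (0.0546) and without no Abf1 replicate 3 (0.0704). MRPL33 (YMR286W, chrXIII:841942-842202, plus strand, 1 exon), uL30, stood at 28.5 and 18.2 CPM with WT Abf1 and at 3.01, 7.49 and 6.17 without (−2.03 ± 0.47 SE, edgeR adjusted p = 0.00960). Among the libraries left out in turn, WT Abf1 replicate 1, the library of the other batch, was the one that ended its call (edgeR adjusted p = 0.0553). The call was also missed on log2(TPM + 1) and log2(TPM + 0.1) (limma adjusted p = 0.0516 and 0.101). MRPL51 (YPR100W, chrXVI:729791-730213, plus strand, 1 exon) encodes mL43, another mitochondria-specific subunit. It was at 31.9 and 32.1 CPM with WT Abf1 and at 8.02, 14.05 and 15.4 without (−1.35 ± 0.37 SE, edgeR adjusted p = 0.0222). Leaving out either WT Abf1 library or no Abf1 replicate 1 or 2 ended this call (edgeR adjusted p 0.0580 to 0.0994), and the dubious open reading frame YPR099C overlaps the gene, so its counts are uncertain where strand was not used. MRP20 (YDR405W, chrIV:1277646-1278437, plus strand, 1 exon), uL23, lines the exit of the peptide tunnel. It stood at 36.1 and 30.7 CPM with WT Abf1 and at 12.0, 17.8 and 17.5 without (−1.07 ± 0.27 SE, edgeR adjusted p = 0.0164), and was lost without WT Abf1 replicate 1 (0.0676) or no Abf1 replicate 1 (0.0581).

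MRPL17 (YNL252C, chrXIV:171441-172286, minus strand, 1 exon), mL46, was the only member to rise, from 26.9 and 30.7 CPM with WT Abf1 to 46.1, 46.8 and 46.3 without. The 3 no Abf1 libraries were nearly equal and lay above both WT Abf1 libraries (0.68 ± 0.22 SE, edgeR adjusted p = 0.0425). The rise was lost when any WT Abf1, no Abf1 or NCS506 library was left out (edgeR adjusted p up to 0.157) and in DESeq2 (adjusted p = 0.124). The next largest rises were smaller and not called. MRPL6, uL6, stood at 36.1 and 34.2 CPM with WT Abf1 and at 51.1, 46.8 and 52.4 without (0.51 ± 0.27 SE, edgeR adjusted p = 0.184). MRPL22, uL22, stood at 46.2 and 44.7 with WT Abf1 and at 75.2, 59.0 and 59.6 without (0.51 ± 0.20 SE, edgeR adjusted p = 0.0908). The groups of both genes were free of overlap. In all, 9 members were lower and 10 were higher without any overlap between the groups, where 28.0% and 28.6% of all features were. Without WT Abf1 replicate 1, which leaves libraries of a single time and batch label, only IMG2 and MRPL36 were called; without no Abf1 replicate 1 there were 3 calls and without the other libraries 5 to 7.

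**Figure D4:**
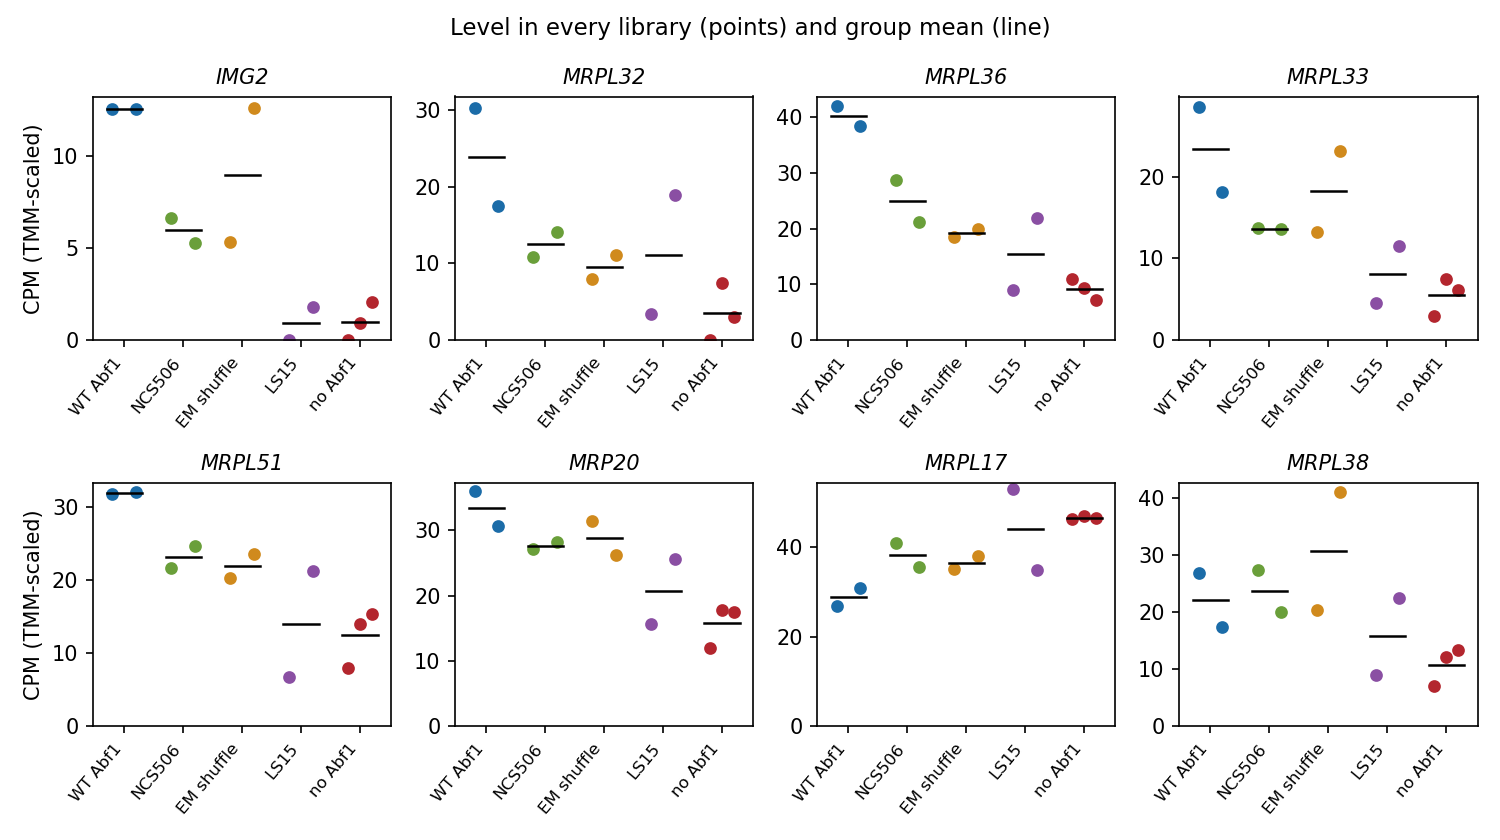
Points are TMM-scaled CPM of single libraries and lines are group means, for the 6 genes that fell without Abf1, MRPL17, which rose, and MRPL38 on chromosome XI. In the genes that fell, the lowest value is in a no Abf1 library or in LS15 replicate 1. EM shuffle and NCS506 libraries mostly lie between no Abf1 and WT Abf1.

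The members were also counted by role, beside the 13.7% of all features that fell and the 9.73% that rose. Of the 26 genes for proteins of bacterial origin, 4 fell and 0 rose, with a median of 0.19. Of the 14 for mitochondria-specific proteins, 2 fell and 1 rose, with a median of −0.01. A difference between these classes was not tested. At the exit of the peptide tunnel MRP20 (uL23) fell, whereas MRPL22 (uL22, 0.51), MRPL40 (uL24, 0.14) and MRPL4 (uL29, 0.21) were not called. The genes for the core proteins that fold the centre of the ribosomal RNA were not called either: RML2 (uL2) had 0.31, MRPL9 (uL3) 0.26 and YML6 (uL4) 0.50. Nor were those of the stalks, with −0.07 for MRPL1 (uL1), 0.36 for MRPL11 (uL10) and −0.02 for MRPL19 (uL11), which YNL184C overlaps.

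Other genes of mitochondrial translation were counted from lists chosen with earlier results known. Of 31 small-subunit genes, 6 fell and 2 rose, with a median of 0.16 (background lower 13.7%, higher 9.73%). Of 5 further genes of the large subunit or its periphery, MRP49 fell by 2.99 and MHR1 fell by 1.13. Among 9 translation factor genes only IFM1, for the initiation factor, was called (0.74), and of 6 assembly and export genes 0 were, also at an unadjusted p under 0.05.

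Members with an Abf1 match accounted for most of the falls. Of the 13, 5 fell and 0 rose, with a median log2 fold change of −0.84. Of the 27 without a match, MRPL33 fell and MRPL17 rose, with a median of 0.25. The same division over all protein-coding genes tested gave 410 lower and 34 higher of 905 with a match (45.3% lower, median −0.60), and 328 lower and 491 higher of 4404 without (median 0.09). The 5 of 13 (38.5%) are thus close to the share among all genes with a match. The other 8 members with a match divided. MRPL27 (mL41, −0.99 ± 0.42 SE), MRPL28 (mL40, −0.84 ± 0.32 SE) and MRPL39 (bL33, −0.58 ± 0.42 SE) were below 0 and not called, and MRPL27 and MRPL28 did not overlap between the groups. MRPL8 (bL17, −0.20), MRPL44 (mL53, −0.12), MRPL4 (0.21), MRPL16 (uL16, 0.22) and MRP7 (bL27, 0.31) lay close to 0. MRPL16 has 2 matches of the stricter consensus in the gap before its upstream neighbour. MRPL8 has 2 in its window, but the farther, 284 bp upstream, lies beyond the 247 bp gap and within the neighbouring gene COA3. The letters alone thus did not sort the genes that fell from those that did not. MRPL33 had no exact match. Up to 1 letter different was found in its window, as in 64.9% of all promoters.

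Many of these promoters face a second gene. In 24 members (60.0%, against 51.5% of all protein-coding genes) the upstream neighbour is divergent, and 16 are in tandem. Of the 24, 4 fell, and of the 16, 2 fell and 1 rose (background lower 13.7%, higher 9.73%). Among 20 divergent protein-coding neighbours that were tested, 4 fell and 2 rose without Abf1, beside the same background. A difference between the layouts was not tested. In 2 pairs both genes were called: CDC10, for a septin, fell by 2.20 beside MRPL32, and NGL2, for a processing enzyme of ribosomal RNA, fell by 1.00 beside MRPL33. In 2 more pairs with a match the neighbour fell and the member was not called. COA3, for a cytochrome oxidase assembly factor, fell by 1.09 beside MRPL8 (adjusted p = 0.0352, edgeR with Benjamini-Hochberg adjustment), and HRB1, for an mRNA-binding protein, fell by 0.76 beside MRP7 (0.00803). The MRP7 match is 346 bp from its start codon in a gap of 486 bp and so lies nearer to HRB1.

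The variants were then set against WT Abf1 and against no Abf1. These comparisons share their controls, so each gene's own values are given side by side. In EM shuffle against WT Abf1, 0 of 40 members were called (background 2.24%; higher 0.678%, lower 1.56%) in edgeR and in DESeq2, and 4 had an unadjusted p under 0.05. The median was 0.04, and −0.06 over the 35 members on other chromosomes than VIII and XI, against 0.72 for the 4 on XI. Without EM shuffle replicate 1, which leaves replicate 2 alone, 3 members were higher, and without replicate 2 none was called. In NCS506 against WT Abf1, 0 members were called (background 0.587%; higher 0.055%, lower 0.532%) in either tool, with 2 at an unadjusted p under 0.05 in edgeR and a median of 0.01.

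In LS15 against WT Abf1, IMG2 and MRPL36 fell and no member rose (background lower 6.76%, higher 4.47%). IMG2 had 0 and 3 counts in LS15, 9.43% of the WT Abf1 level after scaling for depth (exact 95% interval 1.85% to 30.1%, counting error only), with an edgeR adjusted p of 0.0278. MRPL36 stood at 9.0 and 21.9 CPM in LS15 (−1.26 ± 0.34 SE, edgeR adjusted p = 0.0358). The LS15 libraries lay far apart, and both calls were lost without LS15 replicate 1, the shallowest library (edgeR adjusted p = 0.139 and 0.184), without either WT Abf1 library, and in a fit of LS15 and WT Abf1 alone (0.0575 and 0.108). Over the 6 genes that fell without Abf1, the median log2 difference from the WT Abf1 mean was −2.05 in LS15 replicate 1, within the range of the no Abf1 libraries (−2.15, −1.46 and −1.86), and −0.69 in replicate 2. In NCS506 it was −0.61 and −0.67, and in EM shuffle −0.89 and −0.37. These 6 were chosen for their fall in no Abf1 against WT Abf1, so the no Abf1 values are a description. The choice also used the WT Abf1 libraries, from whose mean every difference here is taken. The variant values are therefore not independent of it either. The other 34 members had medians between −0.06 and 0.23 in every library.

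**Figure D5:**
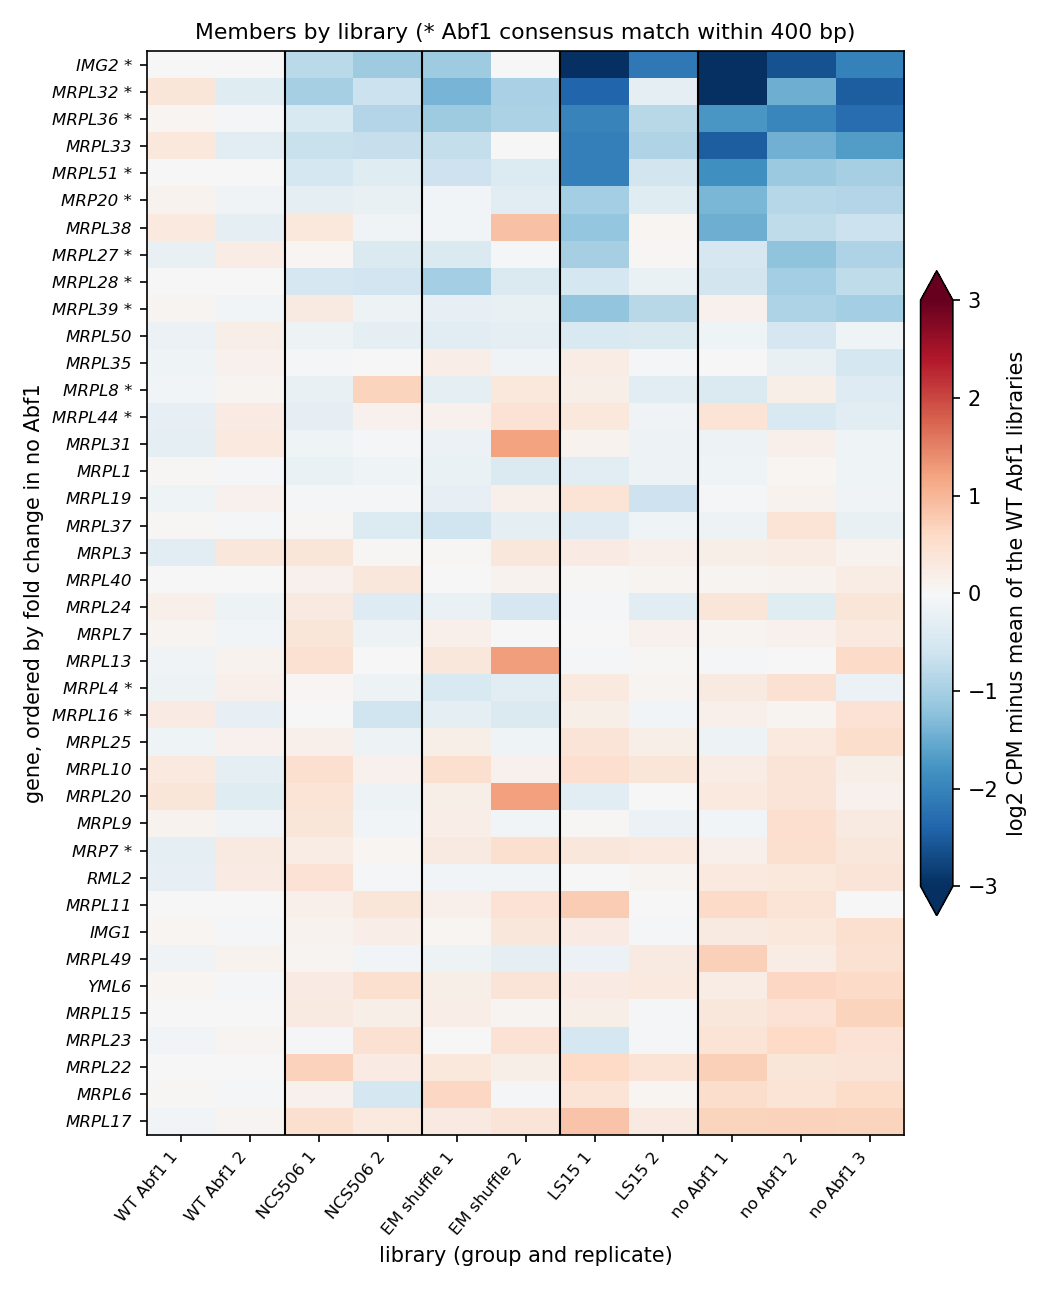
Colour gives the log2 CPM of each gene in each library minus the mean of the 2 WT Abf1 libraries, with genes ordered by fold change in no Abf1 and an asterisk for an Abf1 consensus match within 400 bp upstream. The blue block of the first genes is deepest in no Abf1 and LS15 replicate 1, and the 4 genes of chromosome XI are red in EM shuffle replicate 2.

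Against no Abf1, EM shuffle held 5 members higher and 2 lower (background higher 12.9%, lower 11.1%). The control libraries are those in which IMG2, MRPL33, MRPL36 and MRP20 fell above, so their return among these calls is not independent of that choice. IMG2 stood at 5.31 and 12.6 CPM in EM shuffle (3.05 ± 0.79 SE, edgeR adjusted p = 0.0185), MRPL33 at 13.3 and 23.1 (1.67 ± 0.46 SE, 0.0236), MRPL36 at 18.6 and 19.98 (1.06 ± 0.36 SE, 0.0491) and MRP20 at 31.4 and 26.3 (0.87 ± 0.27 SE, 0.0357). All of these libraries lay above all no Abf1 libraries. The fifth, MRPL38, which encodes uL14, is on chromosome XI. It stood at 20.4 and 41.0 CPM in EM shuffle and at 7.02, 12.2 and 13.4 in no Abf1 (1.48 ± 0.43 SE, edgeR adjusted p = 0.0306), and without EM shuffle replicate 2 at 0.90 with an adjusted p of 0.232. MRPL49 (bL21) was lower in EM shuffle, at 30.6 and 27.9 CPM (−0.72 ± 0.21 SE, edgeR adjusted p = 0.0327), as was MRPL4 (uL29), at 45.2 and 49.4 against 76.2, 87.1 and 55.5 (−0.63 ± 0.21 SE, edgeR adjusted p = 0.0453). Neither of these 2 differed between EM shuffle and WT Abf1 by the test (−0.24 and −0.42). The EM shuffle calls rested on replicate 2, the library with the raised chromosome XI: they were lost without it, whereas calls remained without replicate 1. Each of these fits leaves a single EM shuffle library. With chromosomes VIII and XI left out there were 6 calls of 35. The EM shuffle calls rested on no Abf1 replicates too, with 0, 1 and 2 calls when no Abf1 replicate 1, 2 or 3 was left out.

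NCS506 differed from no Abf1 in 1 member, MRPL36 (background 3.19%; higher 2.4%, lower 0.788%). It stood at 28.7 and 21.2 CPM in NCS506 against 11.03, 9.37 and 7.20 in no Abf1 (1.44 ± 0.34 SE, edgeR adjusted p = 0.0454), with no overlap, and the call was lost without any 1 of these 5 libraries (edgeR adjusted p up to 0.228). IMG2 stood at 6.67 and 5.30 CPM in NCS506, which was above all no Abf1 libraries but not called (2.52 ± 0.84 SE, edgeR adjusted p = 0.127). LS15 differed from no Abf1 in 0 members (background 0.0%), in edgeR and in DESeq2, and 4 had an unadjusted p under 0.05. This does not show that they were alike: for MRPL32, which stood at 3.37 and 18.9 CPM in LS15, the difference was 1.78 ± 0.79 (SE). Whether the variants differed from each other in these genes was not tested.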

How the data were processed

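Total RNA from 11 cultures was made into directional libraries, and per the labels the authors used STAR and RSEM with the sacCer3 (R64) genome. For each of 6834 features the deposited files give a raw count (whole numbers) and a TPM. RSEM is the quantifier named; whether the whole numbers are its rounded estimates and whether strand was used are not given in the sources used here. The deposited TPM values sum to 8.18% to 14.1% of their full scale over the listed features, and they served only in alternatives.

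The test was edgeR's (version 4.0.16, R 4.3.3) quasi-likelihood F-test (TMM and filterByExpr; 7 contrasts from 1 fit of 11 libraries, common biological coefficient of variation 0.171), with Benjamini-Hochberg adjustment over 5456 features at a threshold of 0.05. CPM used TMM library sizes and log2 CPM a prior count of 2. The alternatives were limma 3.58.1 on log2(TPM + 1) and log2(TPM + 0.1), DESeq2 1.42.0, other filters and scalings, and each library left out in turn. P-values set each difference against a spread within groups that was estimated from all 11 libraries together. That estimate includes the WT Abf1 pair, whose libraries differ in time and batch label, and the EM shuffle pair with its raised chromosomes. Intervals are exact binomial at 95% and cover counting error only.

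Promoters (400 bp before the start codon) and downstream sequence (300 bp) came from the RefSeq R64 genome, and 6014 features matched its annotation. Neither window was cut at the neighbouring gene, so a promoter window can run into it. The files hold no coordinates to compare with it. The Abf1 consensus is the split site described for Abf1, searched on both strands. Full values are given for the 5 most negative and 3 most positive fold changes in no Abf1, up to 3 called members of each other comparison, and the 2 highest and 2 lowest members per length; others named were chosen after their values were seen. Members and lists were chosen with earlier results of these data known. Tables, searches and plots used pandas 2.3.3, matplotlib 3.10.9, scipy 1.17.1 and numpy 2.4.6 under Python 3.11.15.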

Additional observations from a re-analysis of the deposited data

How the results depend on the processing

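Members called in no Abf1 against WT Abf1 numbered 7, 2 with at least 10 counts in every library (31 members tested), and 3 and 2 with limma on log2(TPM + 1) and log2(TPM + 0.1). Their median of 0.15 became −0.0044 and 0.064 on those TPM scales and 0.056 with TMM on genes without an Abf1 match. On the same TPM scales, in that order, EM shuffle against WT Abf1 gave 22 and 18 calls (medians 0.62 and 1.04), NCS506 against WT Abf1 19 and 14 (0.65 and 1.04), EM shuffle against no Abf1 28 and 24 (0.65 and 1.05), NCS506 against no Abf1 34 and 29 (0.67 and 1.01) and LS15 against WT Abf1 0 and 0 (0.12 and 0.17); LS15 against no Abf1 had medians of 0.13 and 0.21. The median of all features shifted by 0.56 to 1.05 in the EM shuffle and NCS506 comparisons on these scales. Call counts in this section stand without the share of all features called under the same setting. They are therefore not read as results about the members. On the same TPM scales MRPL49 (0.30 and 0.41) and MRPL4 (0.36 and 0.51) turned positive in EM shuffle against no Abf1. With at least 10 counts in every library, calls were 0 in LS15 against WT Abf1 (median 0.044), 2 in EM shuffle against no Abf1 (−0.15) and 0 in NCS506 against no Abf1, and the NCS506 against WT Abf1 median was 0.14. That filter removed 9 members, IMG2 and MRPL32 among them. A fit of only the groups compared gave 0 calls in LS15 against WT Abf1 and 7 in NCS506 against no Abf1, and DESeq2 gave 3 in EM shuffle against no Abf1. TMM on genes without a match gave medians of −0.12 (LS15) and −0.058 (NCS506) against WT Abf1, and leaving out chromosomes VIII and XI gave −0.041 for EM shuffle.

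Deviations from group means in same-numbered libraries of different variants had an r of 0.18 to 0.37. With 2 libraries per variant these deviations mirror each other, so both replicate numbers of a pair of variants give the same r. Same-numbered libraries of a variant and no Abf1, the groups that share numbers in a comparison, had an r of −0.16 to −0.05. The labels tie no number to a batch or day, so these comparisons were not treated as paired. With a replicate block, EM shuffle against no Abf1 gave 4 calls and NCS506 against no Abf1 0. Each library left out in turn gave 2 to 7 calls in no Abf1 against WT Abf1 (median 0.075 to 0.16), 0 to 3 for EM shuffle (−0.095 to 0.079), 0 to 3 for LS15 (−0.078 to 0.0062) and 0 to 0 for NCS506 (−0.12 to 0.088) against WT Abf1, and against no Abf1 0 to 7 for EM shuffle (−0.11 to 0.034), 0 to 0 for LS15 (−0.13 to −0.046) and 0 to 1 for NCS506 (−0.058 to 0.10). Members with a match had a median of −0.84, −0.91 in a 250 bp window, −0.52 with the stricter consensus, and 0.13 with up to 1 letter different, an alternative added after seeing the data, as was leaving out the chromosomes. Causes were not tested. With a median of 44 counts per gene and library, small changes could not be seen.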
